A study of Mus musculus with 96 samples.

Results

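The let-7 family is a group of microRNAs that share a seed, the short stretch near the 5′ end that pairs with target mRNAs. In 6 of its mouse members the stem-loop gives a mature form that comes from a single locus, so a read of that form has only 1 place of origin: let-7b, let-7d, let-7e, let-7g, let-7i and mir-98. They were taken by their miRBase IDs (MI0000558, MI0000405, MI0000561, MI0000137, MI0000138 and MI0000586), which are 6 of the 1187 stem-loop IDs in the tables. All 6 passed the filter on low counts, which left 434 IDs.

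Small RNA was sequenced from whole cerebellum of 96 mice on a C57BL/6 background, in 24 groups of 4 set by genotype, age (10 or 6 months) and sex. The Q140, Q92, Q50 and Q20 mice were heterozygous knock-ins, with 1 wild-type Htt allele and 1 Htt allele that carried the human first exon with a CAG tract of the named length. The remaining groups were wild-type (WT) mice from the Q20 line and from the Q50 line. Q20 and both WT groups served as controls for Q140, Q92 and Q50, and the Q140 and Q92 mice had no WT littermates in this series. Per the labels, Q140 mice and Q92 mice were each housed with their own genotype, so line and housing cannot be told apart from genotype there. The study's methods describe cages that mixed heterozygous and WT mice, and the sources differ in this. The cerebellum was measured as bulk tissue, so fewer cells of a type and less RNA per cell cannot be told apart.

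In animals let-7 is best known as a family that accumulates as cells leave the proliferating state and differentiate, and its members are abundant in mature neurons. LIN28 binds let-7 precursors and blocks their maturation in early development, and let-7 in turn represses Lin28 mRNA. Because the members carry the same seed, they are predicted to bind largely the same target sites, and they differ in the bases beyond the seed.

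The mature 5p sequences are shown because they set both what the 6 members share and how reads can be told apart. They were read from RefSeq (GRCm38.p6), with the seed (bases 2 to 8) in capitals.

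let-7b-5p: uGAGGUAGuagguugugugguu
let-7d-5p: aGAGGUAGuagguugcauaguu
let-7e-5p: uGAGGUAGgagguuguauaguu
let-7g-5p: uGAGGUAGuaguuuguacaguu
let-7i-5p: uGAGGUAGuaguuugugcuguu
miR-98-5p: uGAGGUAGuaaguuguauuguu

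All 6 have 22 bases and the seed GAGGUAG, and 14 of the 22 positions are identical across them. Any 2 members differ at 2 to 6 positions, all of them outside the seed. The same seed occurs in 11 mature names and 13 stem-loops of the RefSeq table. The nearest relatives in the family are close. Counting from the 5′ end with the member's base given before the position, let-7b differs from let-7c by G17A and let-7e differs from let-7a by G9U. Let-7d differs from let-7a by A1U and C16U, and miR-98 differs from let-7a by A11G and U19A. Let-7g and let-7i differ from each other by A17G and A19U.

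The deposited counts are estimates and need not be whole. Counts of let-7b, let-7e and let-7i were not whole in 96 of 96 libraries, those of let-7g in 93 and those of let-7d in 63. Mir-98 had whole counts in every library. How the estimates arose was not named in any source used, and whether reads of close relatives were divided among stem-loops was not tested.

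The 6 stem-loops lie on 6 chromosomes (GRCm38, GENCODE M21). Let-7b is at chr15:85707319-85707403 on the plus strand, in an exon of the noncoding transcript Lncppara, 622 bases from Mirlet7c-2. Let-7d is at chr13:48536012-48536114 on the minus strand, in an exon of the lincRNA 6720427I07Rik, 1715 bases from Mirlet7f-1 and 2065 bases from Mirlet7a-1. Let-7e is at chr17:17830352-17830444 on the plus strand, in an intron of Spaca6, 368 bases from Mir125a, and an annotated antisense microRNA gene, Gm25927, overlaps it. Let-7g is at chr9:106178840-106178927 on the plus strand, in an intron of Wdr82. Let-7i is at chr10:122985640-122985724 on the minus strand, in an exon of the transcribed pseudogene D630033A02Rik. Mir-98 is at chrX:151913214-151913321 on the plus strand, in an intron of the ubiquitin ligase gene Huwe1 and 786 bases from Mirlet7f-2. The stem-loop lengths implied by the ratio of counts to FPKM equalled the annotated lengths of all 6, although let-7b and let-7i share a length of 85 bases.

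Libraries held 5435778 to 7934044 counts. A standardised connectivity Z.k gave how closely a library resembles the others of its age. It is the distance from the median in scaled median absolute deviations. At 6 months 2 libraries stood apart by a Z.k under -5, namely Q20 female replicate 2 (Z.k -6.68) and Q92 male replicate 4 (Z.k -6.10), and they were left out. This left 94 libraries, 48 at 10 months and 46 at 6 months. Another 6 libraries had a Z.k between -5 and -3, and those that touch a result are named beside it. The library names carry an L tag that the labels do not define and that stands in for the batch. Tags 1 and 8 occur only at 10 months and tags 2, 3 and 4 only at 6 months, so the 2 ages and the tags form a single split. The labelled tissue was not checked against marker microRNAs, since the names of other IDs were not used here.

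All 6 members were abundant. On the FPKM scale, which is per length of the stem-loop, the medians over 94 libraries were 128025 for let-7g, 82300 for let-7i, 46245 for let-7b, 41412 for let-7d, 20608 for let-7e and 4671 for mir-98. This order held in 92 of 94 libraries, and in the other two let-7b and let-7d changed places. In CPM, which scale counts to the library total and not to length, let-7d stood above let-7b in 88 libraries and below it in 6. On that scale the members ranked between 20 and 104 by mean level. Together they took 2.50 to 3.86% of a library's counts, with a median of 2.88%. Let-7g alone made up a median of 39.2% of that sum and mir-98 made up 1.77%. The lowest count of any member in any library was 2488, for mir-98, at which counting error alone is 2.0%, and counting error is below that elsewhere. The spread between mice of 1 group was larger, with a median CV between 4.27% for let-7i and 7.55% for mir-98. Counting error therefore does not limit the comparisons below, and the intervals below include the spread between mice.

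**Figure D1:**
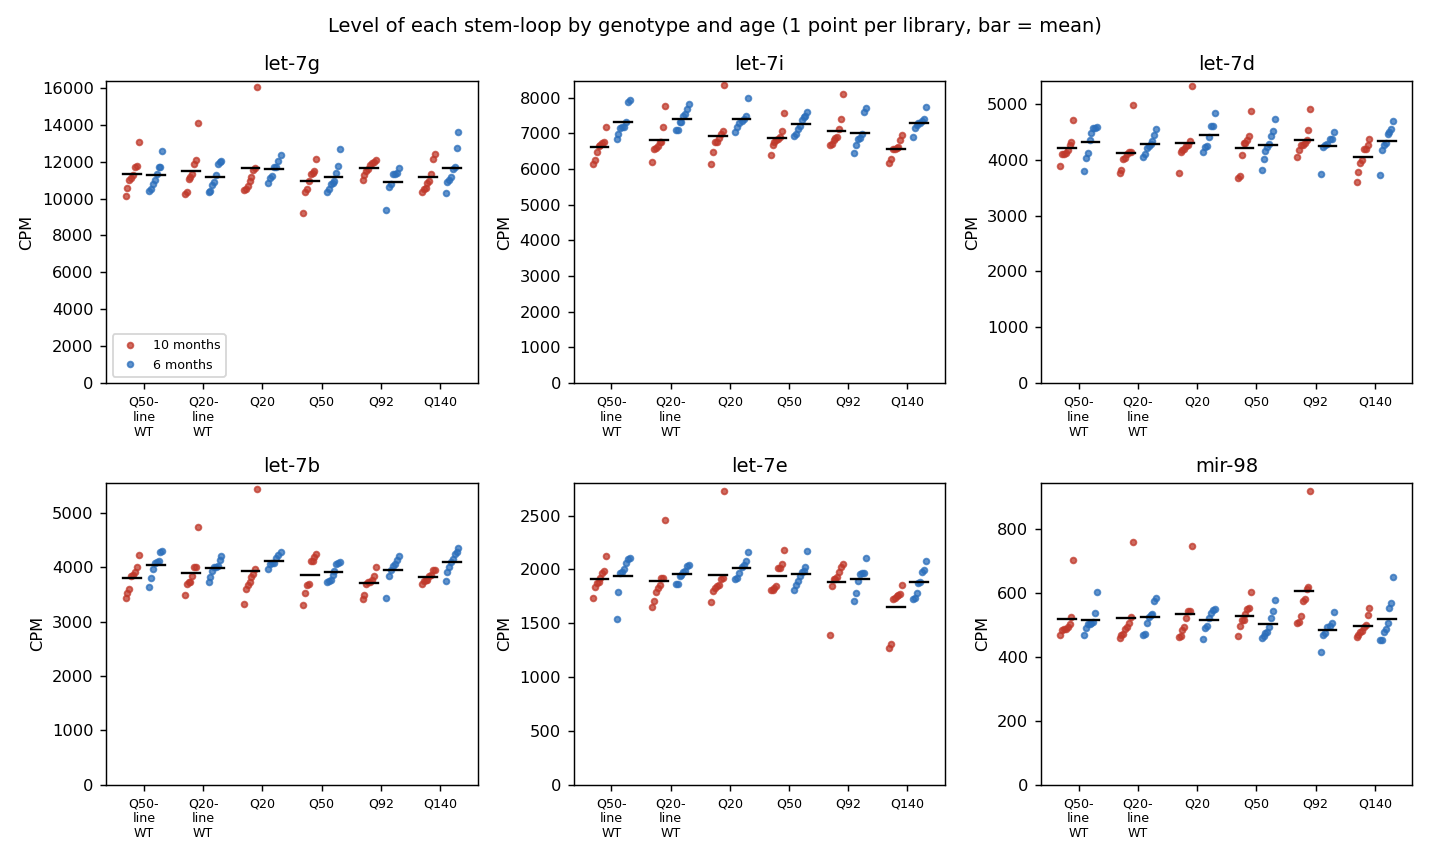
Level of each member in CPM (y axis, from 0) in every kept library, by genotype on the x axis, with 10-month libraries in red left of 6-month libraries in blue and the mean of each as a bar. Most genotype means lie close together within a panel, while let-7e in Q140 mice at 10 months (mean 1647 CPM) sits lowest in its panel and mir-98 in Q92 mice at 10 months (mean 606 CPM) sits highest.

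The level of each member moved little over the 12 combinations of genotype and age. The ratio of the highest to the lowest mean was 1.07 for let-7g, 1.10 for let-7d, 1.11 for let-7b, 1.13 for let-7i, 1.22 for let-7e and 1.25 for mir-98. Of the 11 neighbouring pairs in the order of means, none was further apart than the larger of their SDs for let-7b, let-7d, let-7g, let-7i or mir-98. For let-7e this was the case for 1 pair, Q140 mice at 10 months (1647 ± 226 CPM, SD, n = 8), which came last, and Q92 mice at 10 months (1879 ± 208 CPM, n = 8), which came next to last. The highest and the lowest combination were picked by these same means, and their libraries did not overlap for let-7e or for let-7i. They overlapped for the other 4. For let-7e and let-7i, Q140 mice at 10 months were set against a 6-month group, so genotype, age and L tag differ together. The share of all IDs without overlap was not computed.

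The main question of the study was which microRNAs change with the CAG length of Htt. In Q140 mice against controls, with both ages combined, 5.07% of the 434 IDs passed edgeR's quasi-likelihood test at an adjusted p of 0.05, and 0 of the 6 members did. At an unadjusted p under 0.05 the count was 94 of 434 IDs and 1 of the 6 members, let-7e. DESeq2 called 0 members and limma called 1, again let-7e. Shares over all IDs, here and below, are those of edgeR, so counts of members called by DESeq2 or limma have no background beside them. The median log2 fold change was -0.0085 over the members and -0.0052 over all IDs, with 2 members above 0 and 4 below.

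Let-7e was the member with the largest difference in Q140 mice with both ages combined. At 10 months it had 1725, 1734, 1856 and 1266 CPM in Q140 females and 1308, 1756, 1770 and 1762 CPM in Q140 males. The 24 control libraries of that age had a lowest value of 1646, a median of 1864 and a highest value of 2732 CPM. All 8 Q140 libraries lay below the control median, and 2 of them lay below the lowest control. The 2 lowest, female replicate 4 and male replicate 1, were also libraries of low connectivity (Z.k -3.22 and -3.37). The fitted log2 fold change at 10 months was -0.21 ± 0.07 (SE, 95% interval -0.35 to -0.06), which missed the threshold (edgeR adjusted p = 0.158). Without libraries of Z.k under -3, a limit chosen after seeing the data, the log2 fold change at 10 months was -0.11 (edgeR adjusted p = 0.742).

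At 6 months let-7e had a lowest value of 1728, a median of 1879 and a highest value of 2078 CPM in 8 Q140 libraries, and 1541, 1980 and 2161 CPM in 23 control libraries. The groups overlapped, with 6 of 8 Q140 libraries below the control median. Its log2 fold change was -0.04 ± 0.04 (95% interval -0.12 to 0.04, edgeR adjusted p = 0.680). Both ages combined gave -0.12 ± 0.04 (95% interval -0.21 to -0.04, edgeR adjusted p = 0.116). Over 14 other settings this combined value lay between -0.15 and -0.07, with the adjusted p between 0.0189 and 0.310. The smallest difference, -0.07, was that without libraries of Z.k under -3. The combined value passed the threshold in 2 of these settings, both limma on log2 FPKM. It also passed without Q50 6-month male replicate 3 (-0.13, edgeR adjusted p = 0.0492) and without Q20-line WT 6-month female replicate 3 (-0.14, edgeR adjusted p = 0.0497), a control with the lowest Z.k of those kept (-4.78). Within single L tags the log2 fold change was -0.23 ± 0.13 in tag 1 (3 Q140 and 14 control libraries), -0.14 ± 0.10 in tag 8 (5 and 10), -0.07 ± 0.06 in tag 3 (4 and 12), -0.01 ± 0.08 in tag 2 (3 and 3) and 0.01 ± 0.09 in tag 4 (1 and 8). The 3 Q140 libraries of tag 1 were all from females.

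**Figure D2:**
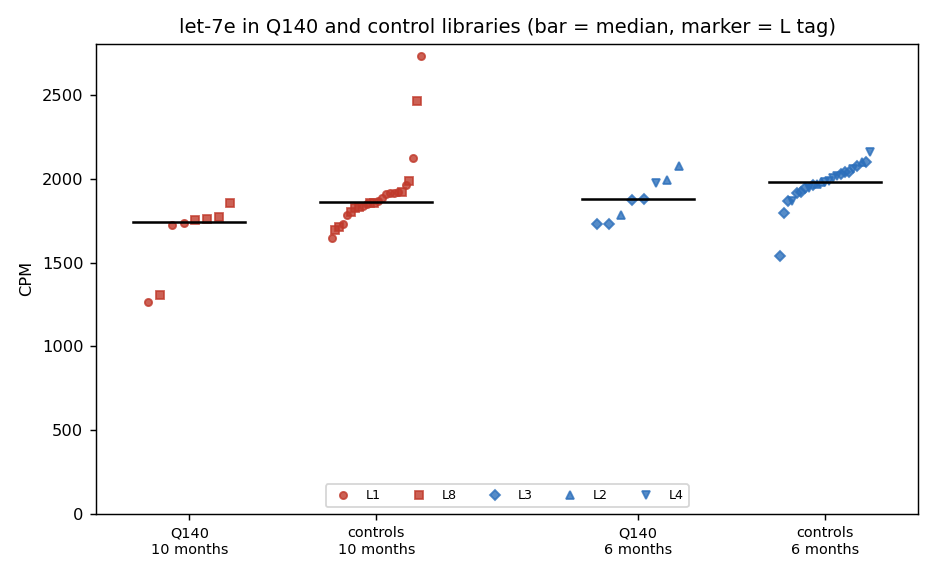
Let-7e in CPM (y axis, from 0) in Q140 libraries left of control libraries at 10 and at 6 months, with the L tag as the marker shape and the median as a bar. At 10 months all 8 Q140 libraries lie below the control median of 1864 CPM and 2 lie far below the rest, while at 6 months the groups overlap.

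None of the other 5 members was called in Q140 mice by edgeR, DESeq2 or limma. With both ages combined the log2 fold change was 0.02 ± 0.03 for let-7b (95% interval -0.04 to 0.08), -0.01 ± 0.03 for let-7d (-0.07 to 0.06), 0.00 ± 0.04 for let-7g (-0.07 to 0.08), -0.01 ± 0.03 for let-7i (-0.07 to 0.05) and -0.05 ± 0.05 for mir-98 (-0.15 to 0.05). Their edgeR adjusted p were 0.648 or higher, and all 5 intervals lay between -0.15 and 0.08. By single ages 2.3% of IDs passed at 10 months and 2.3% at 6 months, and edgeR, DESeq2 and limma each called 0 members at either age. At an unadjusted p under 0.05 there were 47 of 434 IDs and 1 member, let-7e, at 10 months. At 6 months there were 86 of 434 IDs and 0 members.

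Whether the Q140 difference depended on age or sex was tested by interaction terms. Neither interaction passed for any ID (0% of 434 for age, with 33 at an unadjusted p under 0.05, and 0% of 434 for sex, with 29), and 0 members had an unadjusted p under 0.05 in either. DESeq2 and limma also called 0 members. For let-7e the effect at 10 months minus that at 6 months was -0.16 ± 0.08 on the log2 scale (edgeR adjusted p = 0.607), and it was -0.05 (edgeR adjusted p = 0.965) without libraries of Z.k under -3. Over the 6 members the median of this difference was -0.07, against 0.01 over all IDs.

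With CAG length as a number over all genotypes, 3% of IDs passed for both ages combined, 0.461% at 10 months and 2.76% at 6 months. In each of these 3 fits edgeR, DESeq2 and limma called 0 members. Let-7e had the steepest slope, -0.07 ± 0.03 log2 units per 100 CAG with both ages combined (95% interval -0.13 to -0.01, unadjusted p = 0.0405, edgeR adjusted p = 0.255). At 10 months alone its slope was -0.12 ± 0.05 (edgeR adjusted p = 0.358). Without libraries of Z.k under -3 the combined slope was -0.05 (edgeR adjusted p = 0.431), while that at 10 months was -0.07 (edgeR adjusted p = 0.783). The slopes of the other 5 with both ages combined lay between -0.0019 and 0.0099. The count of members at an unadjusted p under 0.05 was 1 for both ages combined, 1 at 10 months and 0 at 6 months. Of the 434 IDs, 78, 44 and 74 were under that limit in the same order.

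Q92 mice gave no calls at all. The share of IDs passing edgeR's test was 0% for both ages combined, 0% at 10 months and 0% at 6 months, with an unadjusted p under 0.05 for 25, 47 and 22 of the 434 IDs. DESeq2 and limma called 0 members in each. With both ages combined the log2 fold changes of the 6 members lay between -0.02 and 0.08, with a median of 0.01 beside 0.00 over all IDs. At 10 months 1 member had an unadjusted p under 0.05, mir-98, and there were 0 at 6 months and 0 for both ages combined. Mir-98 at 10 months had 613, 618, 918 and 579 CPM in Q92 females and 506, 509, 526 and 575 CPM in Q92 males. The 24 control libraries had a lowest value of 458, a median of 492 and a highest value of 757 CPM. All 8 Q92 libraries were above the control median, and female replicate 3, at 918 CPM and with a Z.k of -3.37, was above every control. The fitted log2 fold change was 0.22 ± 0.09 (95% interval 0.05 to 0.40, edgeR adjusted p = 0.343). Without that library it was 0.12 (edgeR adjusted p = 0.726).

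At 6 months mir-98 lay on the other side, with 414, 493 and 540 CPM as the lowest, median and highest of 7 Q92 libraries and 456, 508 and 603 CPM in 23 control libraries. Its log2 fold change was -0.06 ± 0.05 (edgeR adjusted p = 0.973). Within L tags it was 0.20 ± 0.15 in tag 1 (3 Q92 and 14 control libraries) and 0.27 ± 0.12 in tag 8 (5 and 10, the library at 918 CPM among them) at 10 months. At 6 months it was -0.05 ± 0.05 in tag 3 (6 and 12), while tag 4 held a single Q92 library. As an interaction term, the Q92 effect at 10 months minus that at 6 months was 0.27 ± 0.10 for mir-98 (edgeR adjusted p = 0.274) and 0.13 ± 0.06 for let-7i (edgeR adjusted p = 0.410). These were the 2 members at an unadjusted p under 0.05. Of all IDs 0% passed this interaction, with 39 at an unadjusted p under 0.05, and edgeR, DESeq2 and limma called 0 members.

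In Q50 mice 3.69% of IDs passed at 10 months, 0% at 6 months (13 at an unadjusted p under 0.05) and 0% with both ages combined (29), and edgeR, DESeq2 and limma called 0 members in each. At 10 months 71 of the 434 IDs had an unadjusted p under 0.05. Let-7g at 10 months was the only such member, and there were 0 at 6 months and 0 for both ages combined. It had 10972, 10373, 9217 and 10530 CPM in Q50 females and 11468, 12158, 11396 and 11351 CPM in Q50 males. The 24 control libraries had a lowest value of 10119, a median of 11150 and a highest value of 16029 CPM. The groups overlapped, with 4 of 8 Q50 libraries below the control median, and the 4 females were lower than the 4 males. The lowest library, female replicate 3, had a Z.k of -4.32. The log2 fold change was -0.14 ± 0.06 (95% interval -0.26 to -0.02, edgeR adjusted p = 0.241), and without that library it was -0.09 (edgeR adjusted p = 0.677). It was -0.13 ± 0.10 within L tag 1 (4 Q50 and 14 control libraries) and -0.17 ± 0.08 within L tag 8 (4 and 10).

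With both ages combined the log2 fold changes of the members in Q50 mice lay between -0.06 and -0.02, with a median of -0.04 beside 0.00 over all IDs, and the intervals of all 6 include 0. With limma let-7e and let-7i lay above 0 (0.0021 and 0.0027). Let-7b, let-7d, let-7g and mir-98 lay below 0 in all 14 other settings. At 10 months the ratio of mean CPM in Q50 mice to that in controls was above 1 for let-7d, let-7e, let-7i and mir-98. That ratio takes no account of sex or L tag, and the cause of the differing signs was not tested. How the Q50 effect differed between the ages passed for 0% of IDs (68 at an unadjusted p under 0.05), and edgeR, DESeq2 and limma called 0 members, with 0 at an unadjusted p under 0.05. Its largest member value was that of let-7g, -0.15 ± 0.08 (edgeR adjusted p = 0.332).

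The next comparisons stayed within a line. In Q20 mice against their WT littermates 1.15% of IDs passed with both ages combined, with 39 IDs at an unadjusted p under 0.05. In Q50 mice against theirs 0% did, with 25 IDs at an unadjusted p under 0.05. In both, edgeR, DESeq2 and limma called 0 members and 0 members had an unadjusted p under 0.05. The member log2 fold changes were 0.01 to 0.06 in Q20 mice, with a median of 0.03 beside 0.00 over all IDs, and all 6 intervals include 0. At 6 months all 6 values lay above 0, with a median of 0.08, and at 10 months 3 lay above 0 and 3 below. Without Q20-line WT 10-month female replicate 1 the combined value of let-7d was 0.08. For let-7b, let-7g, let-7i and mir-98 the sign of the combined value rests on Q20 10-month male replicate 4, the library with the highest level of 5 members. Without it the values were -0.01 for let-7b, -0.01 for let-7g, -0.02 for let-7i, -0.04 for mir-98, 0.0011 for let-7e and 0.03 for let-7d. In Q50 mice they were -0.05 to 0.00, again with all 6 intervals including 0, and mir-98 was at 0.0089 without Q50-line WT 10-month female replicate 2.

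**Figure D3:**
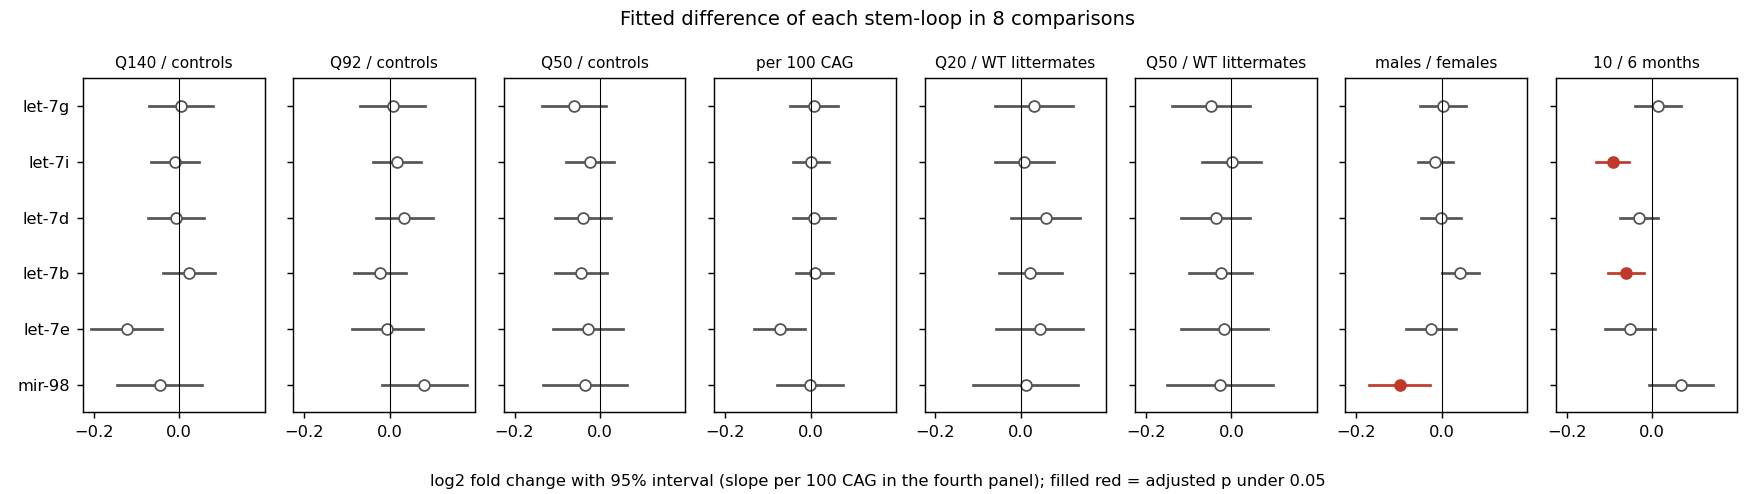
Fitted log2 fold change (x axis; per 100 CAG in the fourth panel) of each member (y axis) with its 95% interval, both ages combined except in the last panel, with filled red points for an edgeR adjusted p under 0.05. The filled points are mir-98 in males against females (-0.10) and let-7i (-0.09) and let-7b (-0.06) at 10 against 6 months, and let-7e lies to the left in Q140 mice (-0.12) without passing.

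Sex gave 1 call among the members. Of all IDs 8.06% passed in males against females with both ages combined, 7.6% at 10 months and 2.53% at 6 months. Mir-98, the member on the X chromosome, was lower in males with both ages combined, by edgeR (1 member) and DESeq2 (1 member), while limma called 0. At single ages edgeR, DESeq2 and limma called 0 members, with 0 at an unadjusted p under 0.05 at 10 months and 1, mir-98, at 6 months. Of the 434 IDs, 90 were under that limit at 10 months and 58 at 6 months.

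At 10 months mir-98 had a lowest value of 460, a median of 502 and a highest value of 747 CPM in 24 males, and 458, 513 and 918 CPM in 24 females. At 6 months it had 414, 492 and 577 CPM in 23 males, and 451, 523 and 650 CPM in 23 females. Males and females overlapped at both ages, with 14 of 24 males below the female median at 10 months and 19 of 23 at 6 months. The male mean was below the female mean in 8 of the 12 pairs of genotype and age, 3 of 6 at 10 months and 5 of 6 at 6 months. This count sets mir-98 little apart, since it was 7 of 12 for let-7e, let-7g and let-7i, 6 for let-7d and 3 for let-7b. The log2 fold change was -0.09 ± 0.06 at 10 months, -0.11 ± 0.03 at 6 months and -0.10 ± 0.04 with both ages combined (95% interval -0.17 to -0.03, edgeR adjusted p = 0.0405).

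This call lies near the threshold. It was lost in 7 of 11 other settings and in 18 of 94 fits that each left out 1 library, which moved the adjusted p to between 0.0508 and 0.0798 and the log2 fold change to between -0.10 and -0.08. At 10 months the libraries whose absence ended it were Q140 female replicate 3, Q92 female replicate 3 and males 2 and 4, Q20 male replicate 2, the first female and the first male of the Q20-line WT, and Q50-line WT female replicate 2 and males 3 and 4. At 6 months they were Q140 females 2 and 3 and male replicate 3, Q50 female replicate 3 and male replicate 4, Q20 female replicate 3 and male replicate 2, and Q50-line WT female replicate 4. Without Q92 10-month female replicate 3 the combined value was -0.08 (edgeR adjusted p = 0.0798) and that at 10 months was -0.05 (edgeR adjusted p = 0.681). Within L tags it was -0.02 ± 0.11 in tag 1, -0.22 ± 0.09 in tag 8, -0.33 ± 0.19 in tag 2, -0.05 ± 0.04 in tag 3 and -0.04 ± 0.07 in tag 4, below 0 in 5 of 5.

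**Figure D4:**
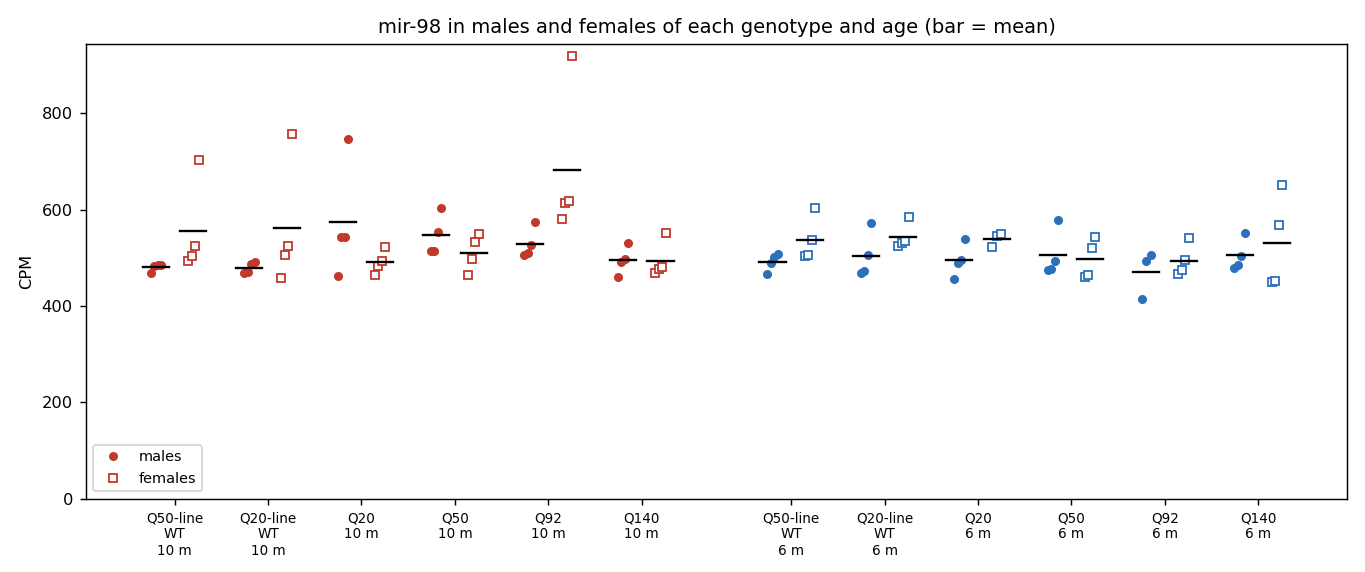
Mir-98 in CPM (y axis, from 0) in males (filled circles) left of females (open squares) of each genotype (x axis), with 10-month mice in red and 6-month mice in blue and the mean as a bar. At 6 months the male mean is lower in 5 of 6 genotypes, and at 10 months the females of Q92, Q20-line WT and Q50-line WT each hold 1 high library (918, 757 and 702 CPM), as do the Q20 males (747 CPM).

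Among the other members let-7b stood nearest to a call between the sexes, in the other direction. At 10 months 18 of 24 males lay above the female median (medians 3852 CPM in males and 3730 CPM in females), and at 6 months 19 of 23 did (4072 and 3959 CPM). With both ages combined its log2 fold change was 0.04 ± 0.02 (edgeR adjusted p = 0.260). The remaining 4 members lay between -0.02 and 0.00.

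Age gave 2 calls, let-7i and let-7b, both lower at 10 months. Of all IDs 34.6% passed between the ages, so 2 of 6 members is close to the background, and DESeq2 and limma each called 2 members as well. The effect of age and that of the tags cannot be told apart here. Let-7i had a lowest value of 6141, a median of 6758 and a highest value of 8359 CPM in 48 libraries at 10 months, and 6443, 7289 and 7988 CPM in 46 libraries at 6 months. The ages overlapped, but 43 of the 48 libraries at 10 months lay below the 6-month median. The medians by L tag were 6774 CPM in tag 1 and 6728 CPM in tag 8 at 10 months, and 7340, 7255 and 7349 CPM in tags 2, 3 and 4 at 6 months. The log2 fold change was -0.09 ± 0.02 (95% interval -0.13 to -0.05, edgeR adjusted p = 9.99e-05), and let-7i stayed called in 11 of 11 other settings and without any single library. Here and for let-7b, the setting with no L tag repeats the main fit, since age was fitted without the tag. The setting without the library of highest member share repeats a fit that left out a single library.

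Let-7b had 3312, 3770 and 5446 CPM as its lowest, median and highest value at 10 months, and 3438, 4055 and 4348 CPM at 6 months, with 41 of 48 libraries at 10 months below the 6-month median. Its highest value at 10 months, Q20 male replicate 4, was above every 6-month library, as was Q20-line WT female replicate 1 (4730 CPM). The log2 fold change was -0.06 ± 0.02 (95% interval -0.10 to -0.02, edgeR adjusted p = 0.0216). The call was lost in 2 of 11 other settings and without any 1 of 7 libraries, which moved the adjusted p to between 0.0514 and 0.0584 at a log2 fold change of -0.05. These were Q140 6-month female replicate 3 and male replicate 2, Q92 6-month male replicate 3, Q50 6-month female replicate 4, Q20 10-month female replicate 1, and Q20 6-month females 3 and 4. The other 4 members did not pass, with log2 fold changes of -0.03 for let-7d, -0.05 for let-7e, 0.01 for let-7g and 0.07 for mir-98 (edgeR adjusted p between 0.166 and 0.731).

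**Figure D5:**
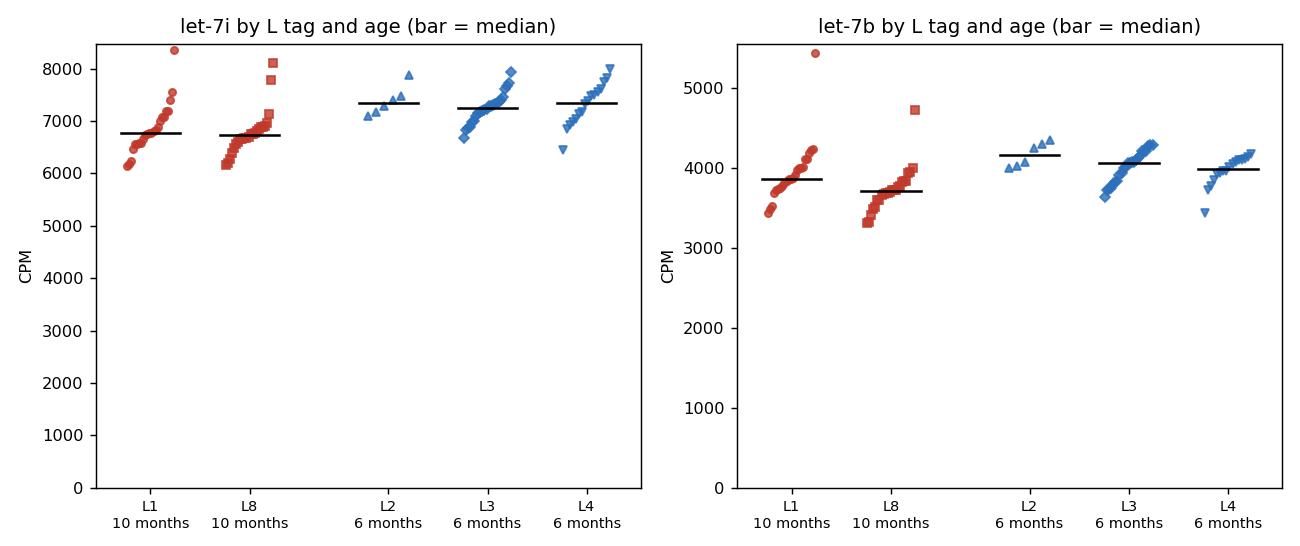
Let-7i and let-7b in CPM (y axes, from 0) by L tag on the x axis, the 10-month tags 1 and 8 in red left of the 6-month tags 2, 3 and 4 in blue, with medians as bars. The let-7i medians of 6774 and 6728 CPM in the 10-month tags lie below those of all 3 tags at 6 months (7255 to 7349 CPM).

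The 6 members varied together from library to library. After centring log2 CPM within genotype, sex and L tag, the 15 member pairs had a median Spearman rho of 0.61 over 94 libraries (0.43 for let-7b with mir-98 to 0.75 for let-7d with let-7e). Members with the other tested IDs had a median rho of -0.02. These points share library totals, and 5 of the members have counts that are not whole, so the values are a description. Let-7d was the nearest tested ID to both let-7b (rho 0.64) and let-7i (rho 0.63). MI0000556, an ID without a name in the tables used here, was the nearest to let-7e (rho 0.88), let-7g (0.84) and let-7d (0.79), and MI0000563, likewise unnamed, was the nearest to mir-98 (0.72). The library with the highest sum of the 6, Q20 10-month male replicate 4 (3.86% of counts, Z.k -2.15), had the highest level of let-7b, let-7d, let-7e, let-7g and let-7i among all 94.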

How the data were processed

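Total RNA was isolated from flash-frozen cerebellum (Qiagen miRNeasy) and sequenced on Illumina instruments. Per the study's methods, clipped reads were aligned to mm10 with STAR and counted with HTSeq. The submitters' processing notes name CASAVA 1.8.2. How counts that are not whole arose was not named in any source used. The authors deposited estimated counts per stem-loop ID, which need not be whole and were rounded here for testing, and FPKM values, used for levels between members and for limma on log2(FPKM + 1). CPM were computed from library totals. The edgeR differences come from TMM-scaled fits, except in the setting with RLE factors, so near 0 their sign can differ from that of CPM means. DESeq2 used its own size factors, and limma used log2 FPKM without TMM.

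edgeR 4.0.16 (R 4.3.3) quasi-likelihood tests were fitted at each age with genotype, sex and L tag, and the ages were combined by z over the square root of 2, with the mean as log2 fold change. Age was fitted without the L tag. IDs needed 10 counts in 8 libraries at each age (434 of 1187, holding at least 99.98% of counts), and p-values were adjusted by Benjamini-Hochberg over all 434. Alternatives were DESeq2 1.42.0, limma 3.58.1, RLE factors, other filters and library sets, no L tag, a replicate block and leaving out each library. The 95% intervals are normal intervals from the SE, and for both ages combined they come from the averaged fit and the p from z, so they can differ near the threshold. The outlier replacement of the study was not applied.

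All 6 members were tested in every comparison, but in some of them single values are given only for members with a small p. For each member the tested ID of highest rho is named. Members, lists and tests were chosen with earlier results of these data known. No table used here pairs other miRBase IDs with names, so genomic neighbours, other family members and cell type markers were not analysed here. Mice were separate animals, and no pair of libraries of the same group agreed within sampling noise (smallest chi-square per degree of freedom 19.8). Libraries of different groups were not compared in this way.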

Additional observations from a re-analysis of the deposited data

Results flagged for a closer look

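In groups of 4 libraries, 132 sets of values were checked for a library whose gap to its nearest neighbour took up more than Dixon's 95% critical share of the range, and 17 were found. For independent sets chance alone gives about 1 in 20, but the members vary together from library to library (median rho 0.61). The other IDs were not checked, so this count is not a result about the members. Groups left with 3 libraries were not checked.

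Q20 10-month male replicate 4 gave 4 of the 17, each the highest of its group, with 5446 CPM of let-7b, 5328 CPM of let-7d, 2732 CPM of let-7e and 16029 CPM of let-7g. Q140 10-month male replicate 1 was the lowest of its group in let-7d (3782 CPM) and let-7e (1308 CPM). Q50-line WT 6-month male replicate 2 was also the lowest in let-7d (3804 CPM) and let-7e (1541 CPM).

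Mir-98 was flagged as the highest value of its group in 3 single females at 10 months. They were Q92 replicate 3 (918 CPM), Q50-line WT replicate 2 (702 CPM) and Q140 replicate 3 (552 CPM). Q20-line WT female replicate 1 of that age, at 757 CPM, was not flagged for mir-98. Q50 males stood high in their groups with 3 values, replicate 2 at 10 months in let-7g (12158 CPM), replicate 4 at 10 months in let-7i (7562 CPM) and replicate 3 at 6 months in let-7g (12693 CPM), and so did 1 Q50 female, replicate 4 at 10 months, in let-7e (2015 CPM). Q20-line WT 10-month female replicate 1 was high in let-7b (4730 CPM) and male replicate 3 of that line and age was low in let-7d (3761 CPM).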

How the results depend on the processing

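The 6 members gave 78 results, each recomputed under up to 14 other settings. Among these, 3 settings were added after seeing the data, namely libraries of Z.k at least -3 alone, Z.k over all libraries together, and without the library of highest member share. No called value changed sign. The median over all IDs moved by -0.034 to 0.076 on the log2 scale over these settings.

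The count of members called between the sexes, 1 for both ages combined, was 0 with RLE factors, with no low-count filter, with no L tag, with limma at either pseudocount, with Z.k of at least -3 and with Z.k of all libraries together. The count in Q140 mice, 0 for both ages combined, was 1 with limma at either pseudocount. The count between ages, 2, was 1 with no low-count filter and with Z.k of all libraries together. Leaving out each library in turn gave 0 to 1 members between the sexes (both ages combined and at 6 months), 0 to 1 in Q140 mice with both ages combined and 1 to 2 between the ages, and changed no other count. The adjusted p of mir-98 at 6 months between the sexes passed without any 1 of 3 libraries. A change of sign of an uncalled value was counted where it moved by more than its SE. There were 8 such changes, all in how the Q50 effect differed between the ages, with limma (pseudocount 1 and 0.1 alike): let-7b 0.034, let-7d 0.030, let-7e 0.049 and let-7i 0.040. The cause was not tested.

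With the replicate number as a block in place of sex, no call changed among 40 results. For let-7e in Q140 mice, both ages combined, the block gave -0.123 (edgeR adjusted p = 0.112). Deviations of libraries with the same number correlated with a median r of -0.00066 over 230 pairs (88 above 0.1), and those with different numbers with -0.012 over 690 pairs (222 above 0.1). This check showed no pairing by number. It cannot exclude pairing, since the deviations were not adjusted for the L tag, which 41.3% and 46.8% of these pairs shared.

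Depth did not limit these stem-loops. With 7 or 8 mice per genotype and age, the SEs with both ages combined were 0.03 to 0.05 against controls, up to 0.06 against littermates and up to 0.10 for interactions, and they limit what can be seen. The L tag stands in for a batch the labels do not define, and the age comparison cannot be told apart from it.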
